A study of Mus musculus with 2 samples.

Results

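The genes followed here encode 41 enzymes and regulators of glycolysis, the pyruvate dehydrogenase (PDH) complex and the tricarboxylic acid (TCA) cycle in mouse CD8+ T cells. They were picked by name, as the enzymes and regulators of these pathways, from 14732 gene symbols listed for at least 1 library. Of the 41 genes, 20 belong to the glycolytic group, from *Hk1* to *Pfkfb4*, and 21 to the PDH and TCA group, from *Pdha1* to *Pcx*. All 41 members were found, and each had an FPKM (a read number scaled to transcript length and library depth) of at least 1 in at least 1 library, which is the rule used below for calling a gene expressed. It left 9925 expressed genes.

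The cells were taken from the lymph nodes and the spleen of OT-I transgenic mice of the C57BL/6 strain, aged 6 to 8 weeks, whose CD8+ T cells carry a receptor for an ovalbumin peptide. Both groups had been activated with 2.5 ng/mL peptide and 10 U/mL IL-2 for 24 h and transduced with retrovirus, and cells bearing the human CD2 tag of the vector were sorted 48 h later. The control group carried the empty vector and the other group a vector for Eomes, a T-box transcription factor, joined to the same tag. Both were restimulated at 40000 cells per well with the same doses for 3 days. Each group is 1 library, so no difference has a replicate check and no test between the groups is given. The size of a difference is described by the log2 ratio of FPKM (Eomes-overexpressing over control) beside the same value over all expressed genes. The study asked how high levels of Eomes alter the transcriptome of repeatedly stimulated CD8+ T cells.

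*Eomes* itself was at 2.47 FPKM in control and 129.6 FPKM in the other library (log2 ratio 5.71), the direction its labels give. The 5 CD3 and CD8 chain genes were at an FPKM of 99.1 to 264.4, and their sum was 978 in control and 719.98 with Eomes. Of 17 marker genes of other cell types, 6 were not listed in either library and 2 reached an FPKM of 1, the B cell gene *Cd79b* (2.79 in control and 1.56 with Eomes) and the myeloid gene *Cd68* (2.68 and 4.59). The summed FPKM of the 17 genes was 7.13 and 7.56. Fewer cells of a type and less RNA per cell cannot be told apart in such bulk libraries.

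Glycolysis splits glucose into pyruvate in the cytosol and yields a little ATP without oxygen. Pyruvate is then either reduced to lactate or carried into mitochondria, where the PDH complex turns it into acetyl-CoA for the TCA cycle. Activated CD8+ T cells are known for a high rate of glycolysis with lactate release, under control of Myc and of hypoxia-inducible factors, while the TCA cycle feeds the respiratory chain and supplies building blocks.

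Promoter sequences of 3 members that differ in a short motif are shown. The choice of all 41 members did not use this motif. Hypoxia-inducible factors recognise sites with a core such as ACGTG, which also lies inside the E-box CACGTG read by Myc. The bases from 155 to 26 upstream of a RefSeq start site are shown for each. They are the main lactate dehydrogenase gene *Ldha*, *Pgk1*, which encodes phosphoglycerate kinase, and *Ldhb*, the member with the lowest log2 ratio. *Ldha* has another listed start, and the 300 bases around that start hold no ACGTG. Capitals mark ACGTG on either strand, and 2 overlapping matches form each E-box. The stretch of *Ldhb* holds no ACGTG. Other forms of the core were not searched for in any promoter.
Ldha: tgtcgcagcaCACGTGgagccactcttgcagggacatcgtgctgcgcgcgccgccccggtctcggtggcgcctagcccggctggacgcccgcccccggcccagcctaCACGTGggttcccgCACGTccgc
Pgk1: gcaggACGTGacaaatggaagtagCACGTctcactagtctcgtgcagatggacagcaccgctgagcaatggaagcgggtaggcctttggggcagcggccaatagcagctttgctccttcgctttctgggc
Ldhb: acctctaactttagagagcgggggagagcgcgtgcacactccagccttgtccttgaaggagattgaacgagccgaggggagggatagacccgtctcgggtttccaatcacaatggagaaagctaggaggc

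In build GRCm38.p6 these stretches are chr7:46845649-46845778 on the plus strand, chrX:106186945-106187074 on the plus strand and chr6:142507983-142508112 on the minus strand. Within the 300-base window around a start site (250 bases before and 50 after), at least 1 start of 11 of 20 glycolytic genes held ACGTG, against 5 of 19 PDH and TCA genes with a promoter in the RefSeq table. The same share was 30.9% of expressed genes and 21.8% of all genes in that table. The 20 glycolytic genes have 33 listed starts and the 19 others 25, so the first group had more windows to match in. Counted by single promoter, ACGTG was in 14 of 33 glycolytic windows (42.4%) and 10 of 25 PDH and TCA windows (40%). Of the promoters of expressed genes 26.8% held it, and of all promoters 19.6%. Most of the 10 PDH and TCA windows with ACGTG belonged to *Ogdh*. Several of its windows overlap, so that 1 site is counted repeatedly, and windows of *Aldoa* in the glycolytic group overlap likewise. The shares by window therefore do not compare separate sites. The E-box CACGTG was in 3 of 20 and 2 of 19 genes, respectively, against 12.4% of expressed genes and 8.09% of all genes. Among glycolytic genes the median log2 ratio was -0.14 for the 11 with ACGTG and -0.23 for the 9 without it, so the genes with the letters had the higher median. A match of these letters is a description and not a bound site.

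The glycolytic group held both very abundant and scarce transcripts, and 9 of its 20 genes had a mean FPKM of at least 100. Its median FPKM was 95.7 in control and 80.5 with Eomes, beside 74.95 and 74.96 for the PDH and TCA genes. Together the glycolytic genes took 2.65% of the control library's summed FPKM and 2.47% of the other's, against 0.346% and 0.352% for the PDH and TCA genes. *Gapdh*, the dehydrogenase in the middle of the pathway, had the highest FPKM of all members and stood at position 5 of all genes in control and 6 with Eomes. In both libraries 8 glycolytic genes lay above every PDH or TCA gene, and the most abundant of the latter was *Mdh2*. The ratio of the summed FPKM of the glycolytic group to that of the PDH and TCA group was 7.65 in control and 7.03 with Eomes, a log2 difference of -0.12.

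**Figure D1:**
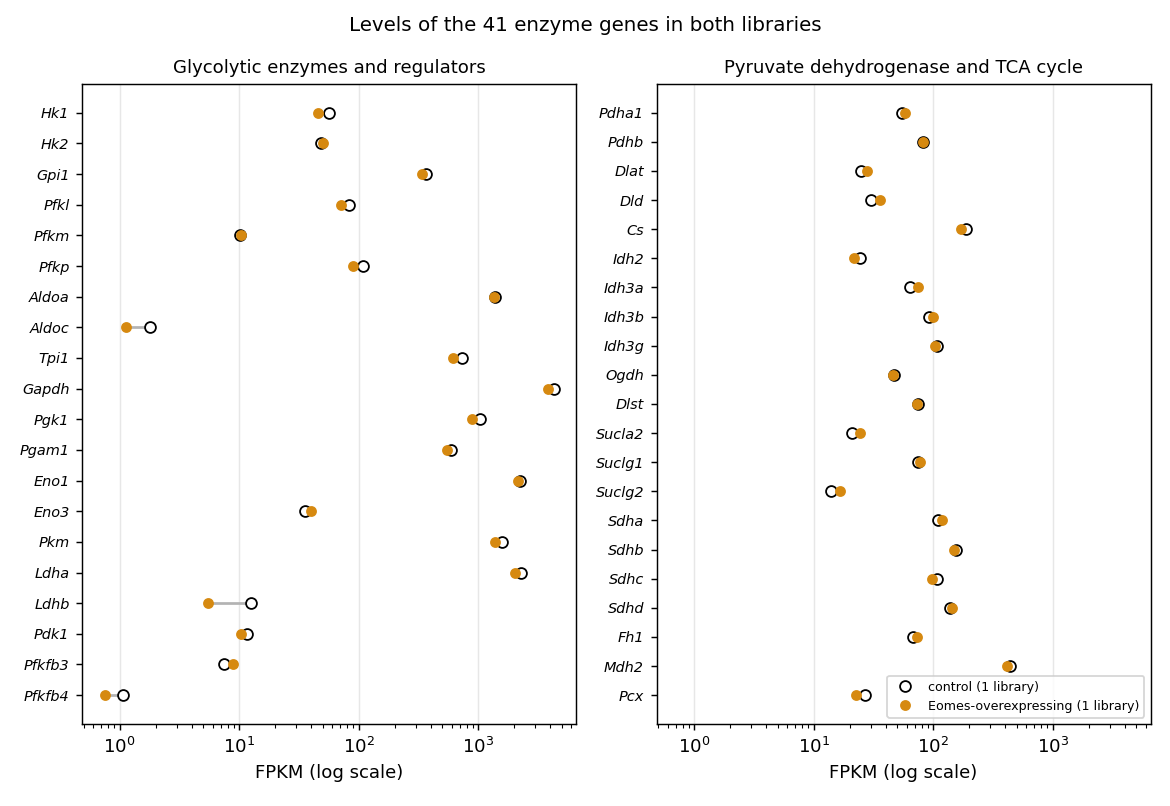
FPKM (log axis) of the 20 glycolytic genes (left) and the 21 PDH and TCA genes (right), with an open circle for the control library and a filled circle for the Eomes-overexpressing library (1 library each, no error bars). Levels spanned 1.07 to 4276 in control, and only *Ldhb*, *Aldoc* and *Pfkfb4* show a clear gap between the circles.

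Most glycolytic genes were slightly lower in Eomes-overexpressing cells, while the PDH and TCA genes lay on both sides of no difference. The log2 ratio was below 0 for 16 of 20 glycolytic genes (80%) and for 9 of 21 PDH and TCA genes (42.9%), against 50.5% of expressed genes and 59.2% of the 910 expressed genes with a mean FPKM of at least 100. The median log2 ratio was -0.17 for the glycolytic group and 0.03 for the PDH and TCA group, a difference of -0.20, beside -0.0037 for all expressed genes. More than 1.5-fold lower were 2 glycolytic genes, *Ldhb* and *Aldoc*, and no member of either group was more than 1.5-fold higher. Of all expressed genes 5.19% were more than 1.5-fold lower and 2.46% more than 1.5-fold higher, and 7.65% were past 1.5-fold in either direction, beside 2 of the 41 members. More than 1.2-fold lower were 5 glycolytic genes and 1 PDH or TCA gene, against 15.2% of expressed genes. More than 1.2-fold higher was *Dld* alone, against 14.9%. Most glycolytic genes thus lay a little below no difference, and few of them far below it.

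Reads behind each value were approximated from FPKM, transcript length and the depth of each library (about 19.1 M reads for control and 18.6 M reads with Eomes), read from the steps between the lowest values. The 95% intervals below are exact binomial (Clopper-Pearson) intervals on those read numbers. Only counting error is in them, and they set 1 library against another, not 1 condition against another. The interval lay below 0 for 15 glycolytic and 5 PDH and TCA genes, above 0 for 3 and 9, and spanned 0 for 2 and 7, respectively. Over all expressed genes with a reference transcript 25.6% of the intervals lay below 0 and 26% above. Abundant genes have narrow intervals, and at a mean FPKM of at least 100 the shares were 43.3% below 0 and 27.5% above, beside 9 of 9 glycolytic genes below and, of 7 PDH and TCA genes, 3 below and 1 above.

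**Figure D2:**
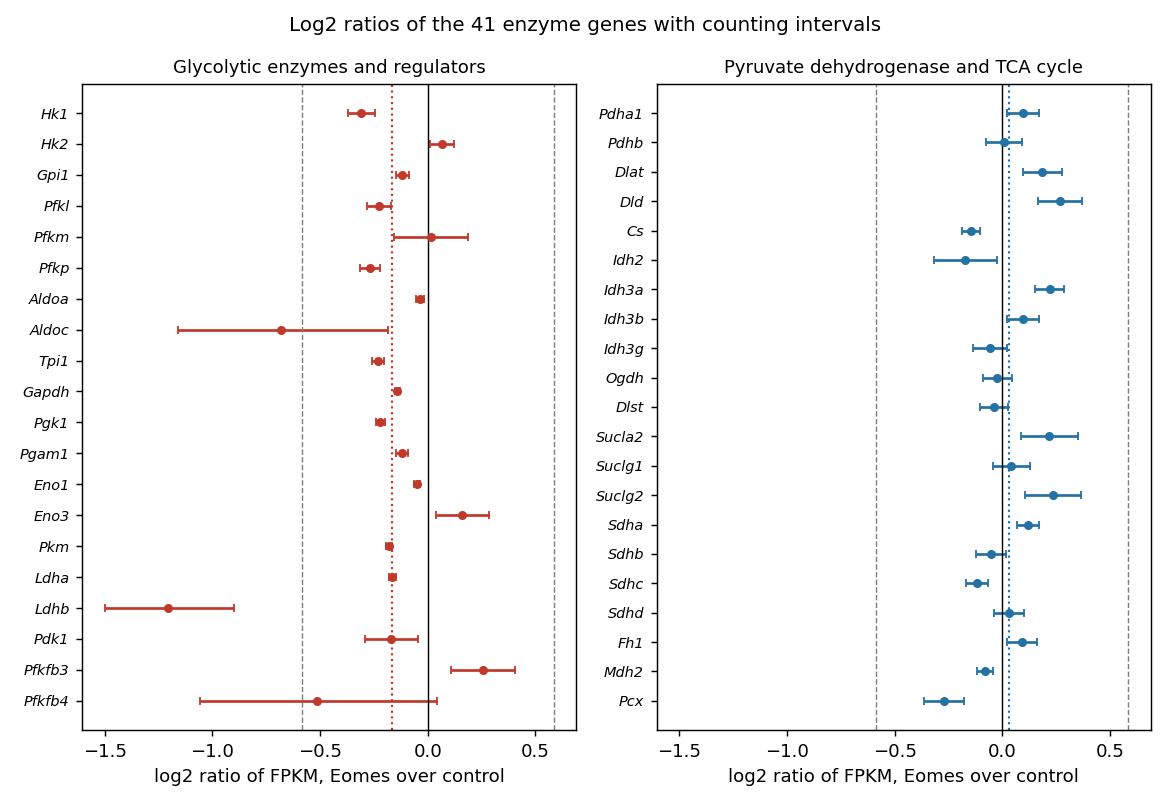
Log2 ratio of FPKM (Eomes-overexpressing over control) of each member in pathway order, with 95% counting intervals from approximate reads; the dashed lines mark 1.5-fold and the dotted line the median of the group. The glycolytic median is -0.17 and the PDH and TCA median 0.03, and *Ldhb* at -1.21 is the farthest point.

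Hexokinase commits glucose to the cell by phosphorylation, and its 2 isoenzymes differed in direction. *Hk1* had an FPKM of 57.0 in control and 46.0 with Eomes, a log2 ratio of -0.31 (interval -0.37 to -0.25). *Hk2*, the isoenzyme induced by activation, was at 48.5 and 50.8, a log2 ratio of 0.07 (interval 0.0096 to 0.12). The share of *Hk2* in the hexokinase FPKM was 46.0% in control and 52.5% with Eomes, a small difference between single libraries. Centred by GC content *Hk1* was at -0.22 and *Hk2* at 0.13. Centred by transcript length they were at -0.35 and 0.0091. *Gpi1*, which interconverts the hexose phosphates, was at 369.1 and 340.2 (log2 ratio -0.12).

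Phosphofructokinase, the main control point of glycolysis, is built from liver, muscle and platelet type subunits. *Pfkp* was the most abundant of these, with an FPKM of 108.7 in control and 90.3 with Eomes (log2 ratio -0.27, interval -0.31 to -0.22). *Pfkl* was at 82.7 and 70.7 (log2 ratio -0.23), and *Pfkm* at 10.2 and 10.3 (log2 ratio 0.015). The 2 abundant subunits were lower by a similar factor, so their shares hardly differed (53.9% and 52.7% for *Pfkp*). The summed FPKM of the 3 subunits had a log2 ratio of -0.23, and no other reaction of glycolysis was lower.

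The enzymes that make or use the activator of phosphofructokinase were scarce. *Pfkfb3*, whose product has mainly kinase activity, was at an FPKM of 7.43 in control and 8.88 with Eomes. Its log2 ratio of 0.26 (interval 0.11 to 0.41) was the highest of the glycolytic group. *Pfkfb4* was at 1.07 and 0.75, a log2 ratio of -0.51, with about 71 and 49 reads and an interval of -1.06 to 0.045 that spans no difference.

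Aldolase cleaves the hexose bisphosphate into trioses, and nearly all of its transcript was *Aldoa*. The FPKM of *Aldoa* was 1389.9 in control and 1355.7 with Eomes (log2 ratio -0.036). *Aldoc*, an isoenzyme best known from brain, was at 1.81 and 1.13, a log2 ratio of -0.68 that rests on about 96 and 59 reads (interval -1.16 to -0.18). It made up 0.13% of the aldolase FPKM in control, and the sum of both genes had a log2 ratio of -0.037. *Tpi1*, which balances the trioses, was at 728.7 and 620.4 (log2 ratio -0.23, interval -0.26 to -0.20).

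The later part of glycolysis, where ATP is regained, held the most abundant genes. *Gapdh* was at an FPKM of 4276 in control and 3879 with Eomes, a log2 ratio of -0.14. *Pgk1*, the first ATP-forming enzyme, was at 1043 and 896.2 (log2 ratio -0.22, interval -0.24 to -0.20), and *Pgam1*, the mutase after it, at 598.6 and 551.4 (log2 ratio -0.12). All of these were lower by a similar and small factor. *Eno1*, the main enolase, was at 2220.2 and 2146 (log2 ratio -0.049), and *Eno3*, the muscle type, at 35.8 and 39.99 (log2 ratio 0.16). *Pkm*, which encodes pyruvate kinase and its splice forms, was at 1577 and 1392 (log2 ratio -0.18). The 9 glycolytic genes with a mean FPKM of at least 100 all had a log2 ratio below 0, from -0.23 to -0.036, against 59.2% of all genes at that level. Their median was -0.14, beside -0.029 for the 910 genes. None of these 9 was past 1.2-fold. Of the 910 genes 7.47% were more than 1.2-fold lower, 3.85% more than 1.2-fold higher and 1.32% past 1.5-fold. Of the 7 PDH and TCA genes with a mean FPKM of at least 100, 5 were below 0, with a median of -0.057. At a mean FPKM of 10 to 100, 4 of 7 glycolytic genes were below 0 (median -0.17). So were 4 of 14 PDH and TCA genes (median 0.094) and 50.5% of expressed genes at that level.

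Lactate dehydrogenase held the gene with the largest difference of the pathway, *Ldhb*, while its summed FPKM had a log2 ratio of -0.17. Its *Ldha* subunit, which favours the making of lactate, was at an FPKM of 2298 in control and 2052 with Eomes (log2 ratio -0.16). *Ldhb*, which encodes the heart type subunit, was at 12.7 in control and 5.50 in Eomes-overexpressing cells. The log2 ratio of *Ldhb* was -1.21 (interval -1.5 to -0.90 from about 315 and 134 reads), which is position 120 of the 9925 expressed genes counted from the lowest. *Ldha* exceeded *Ldhb* 181-fold in control and 373-fold with Eomes, and *Ldhb* held 0.549% and 0.267% of the lactate dehydrogenase FPKM. The gene lies on the minus strand of chromosome 6 of mm10, from 142490249 to 142507957. Part of its transcript (27.0% of all stretches of 50 bases) also occurs in the transcript of 1 other annotated gene, so some of its reads may not be assigned to it alone.

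PDH decides the entry of pyruvate into the TCA cycle, and its subunits were level or slightly higher as deposited. *Pdha1* and *Pdhb*, the E1 subunits, were at an FPKM of 54.5 and 81.6 in control and 58.2 and 82.0 with Eomes (log2 ratios 0.10 and 0.0074). *Dlat*, the acetyl-transferring subunit, was at 24.7 and 28.2 (log2 ratio 0.19, interval 0.097 to 0.28). Centred by GC content, *Pdha1* was at 0.0050, *Pdhb* at -0.061 and *Dlat* at 0.12. *Dld*, the flavoprotein shared with the oxoglutarate dehydrogenase complex, was at 30.0 and 36.1, and its log2 ratio of 0.27 (interval 0.17 to 0.37) was the highest of all members as deposited (0.05 after centring by GC content, described below). *Pdk1*, a kinase that switches the complex off, was at 11.7 and 10.4 (log2 ratio -0.17, interval -0.29 to -0.046). Pyruvate carboxylase, which feeds pyruvate into the cycle as oxaloacetate, went the other way: *Pcx* was at 27.2 and 22.5, the lowest log2 ratio of the PDH and TCA group (-0.27, interval -0.36 to -0.18).

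At the head of the TCA cycle the enzymes differed in direction. *Cs*, the citrate synthase, was at an FPKM of 188.2 in control and 170.1 with Eomes (log2 ratio -0.15, interval -0.19 to -0.10). The NAD-dependent isocitrate dehydrogenase is a complex of 3 kinds of subunit, of which *Idh3a* was at 64.4 and 74.96 (log2 ratio 0.22, interval 0.15 to 0.29) and *Idh3b* at 92.5 and 98.9 (log2 ratio 0.10). *Idh3g* of the same complex was at 107.5 and 103.4 (log2 ratio -0.057, interval -0.13 to 0.022). After the centring by GC content described below *Idh3g* was at 0.0056. *Idh2*, the mitochondrial NADP-dependent enzyme, was at 24.5 and 21.8 (log2 ratio -0.17, interval -0.32 to -0.025).

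Most later enzymes of the cycle were close to level, and *Sucla2* and *Suclg2* were the highest of them. *Ogdh* and *Dlst*, subunits of oxoglutarate dehydrogenase, were at an FPKM of 46.7 and 75.3 in control and 46.0 and 73.4 with Eomes (log2 ratios -0.022 and -0.038). The succinyl-CoA ligase has a shared subunit, *Suclg1*, at 74.95 and 77.2 (log2 ratio 0.043). Its alternative partner subunits *Sucla2* and *Suclg2* were higher as deposited, with log2 ratios of 0.22 (20.8 and 24.2) and 0.24 (14.1 and 16.6). After the centring by GC content described below they were at 0.022 and 0.14. *Suclg2* made up 40.3% and 40.6% of the pair. Succinate dehydrogenase, which also serves as a respiratory complex, had the summed FPKM 510.6 and 509.7 over its 4 subunits. Its subunits ranged from a log2 ratio of -0.12 for *Sdhc* (106.8 and 98.5) to 0.12 for *Sdha* (109.4 and 118.9), with *Sdhb* (154.7 and 149.4) and *Sdhd* (139.6 and 142.8) between them. *Fh1*, the fumarase, was at 68.2 and 72.7 (log2 ratio 0.093), and *Mdh2*, the mitochondrial malate dehydrogenase, at 438.7 and 414.7 (log2 ratio -0.081).

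The log2 ratio of a gene moved with the GC content of its transcript in these libraries, and the groups differ in that property. Over the 9835 expressed genes with a reference transcript Spearman's rho of the log2 ratio with GC content was -0.44, across genes that share the same 2 libraries. In the tenth of genes with the lowest GC content the median log2 ratio was 0.25, and in the tenth with the highest it was -0.10. The median GC content was 53.5% for the glycolytic and 49.4% for the PDH and TCA genes, beside 50.2% for expressed genes, and 17 of 20 against 9 of 21 were at or above the latter value. Among the 21 PDH and TCA genes rho was -0.82: *Dld*, *Sucla2* and *Suclg2*, with GC contents of 40.6%, 43.2% and 44.4%, were among the highest, and *Pcx*, with 57.7%, was the lowest. Among the 20 glycolytic genes rho was 0.07, and *Ldhb* and *Aldoc* had a GC content of 53.0% and 51.9%. The part of GC content in the difference between the groups was measured only by the centring below, and its cause was not tested.

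**Figure D3:**
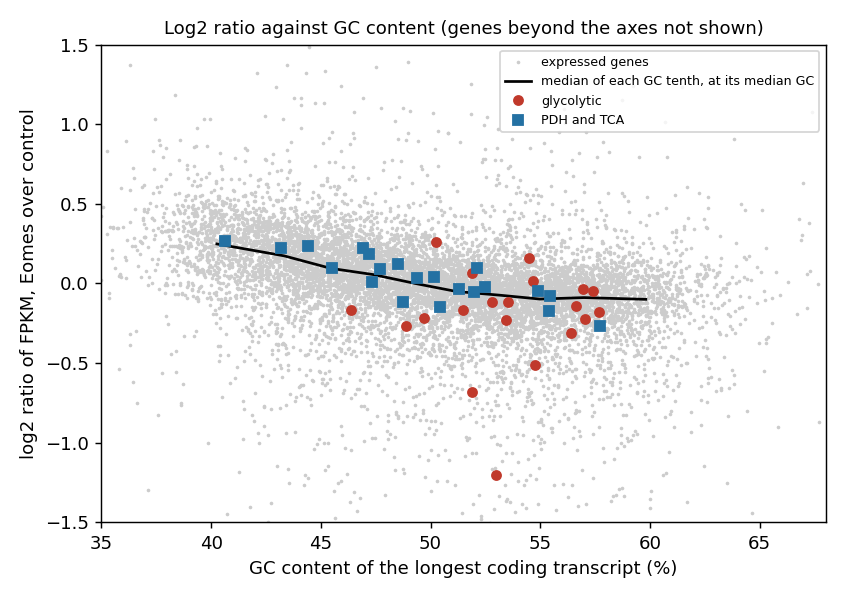
Log2 ratio of FPKM against the GC content of the longest coding transcript for expressed genes (grey), glycolytic genes (red circles) and PDH and TCA genes (blue squares), with a black line through the medians of 10 equal groups of genes by GC content. The blue squares follow the line downward (rho -0.82), whereas the red circles lie at all heights at a GC content of 46.4% or more (rho 0.07).

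When the log2 ratios were centred on the median of genes of similar GC content, 14 of 20 glycolytic genes and 5 of 21 PDH and TCA genes lay below 0, against 50% of expressed genes. Past 1.2-fold were then 4 glycolytic genes that were lower (14.4% of expressed genes) and 2 that were higher (8.71%), and no PDH or TCA gene. *Ldhb* and *Aldoc* were again the 2 members past 1.5-fold, against 6.84% of expressed genes. The medians were then -0.097 and 0.042, and the difference between the groups was -0.14. The range of the PDH and TCA genes narrowed to -0.18 to 0.16. *Dld* was at 0.05 after this step and *Sucla2* at 0.022, whereas *Ldhb* was at -1.14 and *Aldoc* at -0.62. *Aldoa* and *Eno1* turned from slightly lower to 0.055 and 0.038. *Idh3g*, *Ogdh*, *Dlst*, *Sdhb* and *Mdh2* turned likewise, to 0.0056, 0.042, 0.024, 0.052 and 0.013, and *Pdhb* turned lower, to -0.061. Of the 9 abundant glycolytic genes 7 were below 0, and of the 7 abundant PDH and TCA genes 2, against 49% of all genes at that level. The highest members were then *Pfkfb3* at 0.30 and *Eno3* at 0.26. Over 8 scalings (as deposited, 2 pseudocounts, TPM, and centring on the median, a trimmed mean, GC content or length) 14 of 20 glycolytic genes were lower and 4 (*Hk2*, *Pfkm*, *Eno3* and *Pfkfb3*) higher each time. Of 21 PDH and TCA genes 4 were lower and 11 higher each time, against 38% of expressed genes lower and 37.6% higher. A pseudocount cannot change a direction, and centring on the median or a trimmed mean shifted all genes by 0.0037 or less. Only TPM and centring by GC content or length turned any member, so the 8 scalings are not 8 separate checks.

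**Figure D4:**
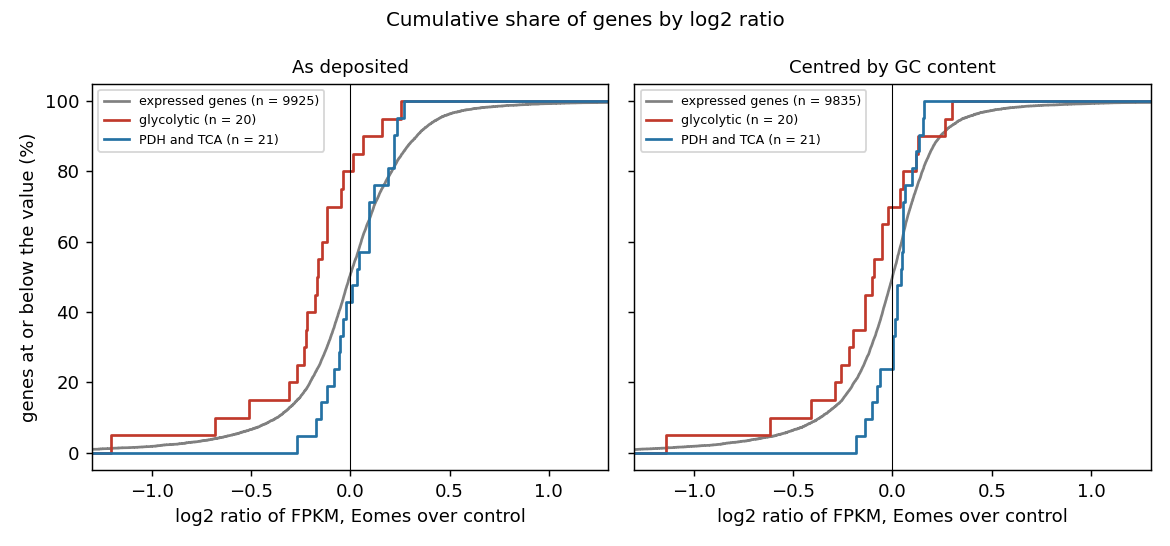
Cumulative percentage of genes at or below each log2 ratio, as deposited (left) and centred by GC content (right), for expressed genes (grey), glycolytic genes (red) and PDH and TCA genes (blue). At a log2 ratio of 0 the red curve is at 80% on the left and 70% on the right, and the blue curve at 42.9% and 23.8%.

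Glycolytic genes also share more sequence with other annotated genes. More than 10% of the 50-base stretches of the transcript occurred elsewhere for 10 of 20 glycolytic and 3 of 21 PDH and TCA genes, with 82.5% for *Gapdh*, 72.2% for *Eno1* and 67.96% for *Pgk1*. The levels of these genes are therefore less certain. *Eno1b*, a near copy of *Eno1* listed as its own gene and chosen after its values were seen, was at an FPKM of 1.15 in control and 0.59 with Eomes. Without the members above 10% the medians differed by -0.20, as they did with them.

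The genes next to the pathway were read from lists of other enzymes and transporters. Of 22 remaining isoenzymes and related enzymes 12 were expressed, 8 lower and 4 higher, none by more than 1.5-fold, with a median log2 ratio of -0.03. Of all expressed genes 5.19% were more than 1.5-fold lower and 2.46% more than 1.5-fold higher, so such counts in short lists say little. Of 20 genes for glucose, lactate and pyruvate transport and for the control and supply of the cycle 19 were expressed, 10 lower and 9 higher. More than 1.5-fold lower were *Slc16a3*, the lactate exporter of glycolytic cells (125.8 and 83.4, log2 ratio -0.59), and *Pdk2*, another PDH kinase (1.80 and 0.80, log2 ratio -1.17). *Slc16a3* was at -0.50 and thus under 1.5-fold after centring by GC content. *Pdp1*, the phosphatase that switches PDH back on, was more than 1.5-fold higher (1.75 and 3.17, log2 ratio 0.86), and was at 0.57, under 1.5-fold, after that centring. The glucose transporters *Slc2a1* (70.3 and 61.9) and *Slc2a3* (52.8 and 40.9) had log2 ratios of -0.18 and -0.37, and -0.082 and -0.35 after that centring. The mitochondrial pyruvate carrier genes *Mpc1* (36.7 and 31.6) and *Mpc2* (34.8 and 32.4) were at -0.21 and -0.10, and at -0.25 and -0.010 after that centring.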

How the data were processed

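RNA from 2 cultures, 1 per group, was sequenced. The authors cleaned the reads with SOAPnuke, aligned them to mm10 (HISAT and Bowtie2) and quantified genes with RSEM. The authors deposited FPKM, called RPKM in their methods, with 2 decimals and 1 value per gene symbol. No scaling between the libraries is stated. Symbols turned into dates (20 in control, 19 with Eomes) were left out.

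Ratios and intervals were calculated in scipy 1.17.1, pandas 2.3.3 and numpy 2.4.6 (Python 3.11.15), and drawn in matplotlib 3.10.9. An FPKM floor of 0.01 was applied, which touched no member. Expressed genes had an FPKM of at least 1 in at least 1 library, and 1.5-fold was the threshold, as in the methods. A smaller threshold of 1.2-fold was added for these abundant genes. Length, GC content and positions came from the longest coding transcript in GENCODE vM21 (mm10), with a match for 99.1% of expressed genes. GC centring used 20 bins. Depth was approximated from genes with a single transcript of 400 to 3000 bases: FPKM times length was 52.4 in control and 53.7 with Eomes at the step of 1 read, and 104.3 and 104.4 at the next. Members were all described, with full values for those past 1.5-fold, the 5 highest and 5 lowest of each group and the leading gene of each reaction; from the other lists, genes past 1.5-fold and *Slc2a1*, *Slc2a3*, *Slc16a3*, *Hif1a*, *Myc*, *Mpc1* and *Mpc2*; 1 further gene of this rule is not reported here. Promoter windows came from RefSeq (GRCm38.p6), with a match for 39 of 41 members. Members and lists were chosen with earlier results of these data known. Steps were tested on simulated data.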

Additional observations from a re-analysis of the deposited data

How the results depend on the processing

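No paired analysis was possible because each group is 1 library, so no replicate number is shared by more than 1 pair. For the same reason no library could be left out. Over 13 alternatives (2 pseudocounts, 5 scalings or centrings, other FPKM minimums, and members left out) the median log2 ratio of the glycolytic genes stayed below 0, that of the PDH and TCA genes above 0 and the difference between them below 0. These alternatives included 2 chosen after seeing the data, GC centring followed by centring on mean FPKM and GC centring without members that share sequence with other genes. Scaling to TPM and centring on the median or a trimmed mean shift all genes by the same amount. Dropping the FPKM minimum removed no member. The difference was thus fixed at -0.20 under each of these and is not checked by them. Centring by GC content changed the sign of 8 of 41 members, by transcript length of 3 and scaling to TPM of 1, and the other 4 scalings and pseudocounts of none. The pseudocounts cannot change a sign. The 2 glycolytic genes past 1.5-fold became 1 with a pseudocount of 1, a minimum FPKM of 5, a threshold of 2-fold, without the members that share sequence, and under both alternatives chosen after seeing the data. *Ldhb* was the gene left with that pseudocount, that minimum or that threshold. *Aldoc* was the gene left without the members that share sequence, because *Ldhb* is among those left out. With a threshold of 1.2-fold 5 glycolytic and 2 PDH and TCA genes were past it. The log2 difference in the ratio of summed FPKM was -0.18 without the members that share sequence and -0.12 without *Gapdh*. About 71 and 49 reads for *Pfkfb4* set the lowest precision, and the spread between replicate cultures is not known.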

Other observations

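All 7 genes of the pentose phosphate pathway, a branch of glycolysis that makes NADPH and ribose, were expressed, 4 lower and 3 higher and none by more than 1.5-fold. Of all expressed genes 7.65% were past 1.5-fold, so finding none among 7 genes says little. Their log2 ratios ranged from -0.071 to 0.37, with a median of -0.027.

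Of 18 transcriptional regulators linked to these pathways 16 were expressed, 9 higher and 7 lower. The median of their log2 ratios was 0.057. Past 1.5-fold were 1 lower and 1 higher, beside 5.19% and 2.46% of all expressed genes. *Hif1a*, the oxygen-regulated activator of glycolytic genes, was at an FPKM of 28.5 in control and 34.5 with Eomes (log2 ratio 0.27, and 0.054 after centring by GC content). *Myc* was at 186.3 and 161.5 (log2 ratio -0.21, and -0.11 after that centring). *Epas1*, which encodes the related factor HIF-2alpha, was the only gene of this list more than 1.5-fold higher, at 1.02 and 4.65. *Egln3*, a prolyl hydroxylase that marks these factors for degradation, was the only one more than 1.5-fold lower as deposited, at 27.95 and 16.9 (log2 ratio -0.72). After that centring *Epas1* was at 2.25 and *Egln3* at -0.66. *Mxi1* (21.6 and 14.6, log2 ratio -0.56) was then also more than 1.5-fold lower, at -0.65.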
